A study of Mus musculus with 6 samples.

Results

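Ciliated airway cells line the conducting airways and bear motile cilia that beat in waves and carry mucus out of the lung. They were chosen here as cell barcodes with at least 1 unique molecular identifier (UMI, one tagged RNA molecule) of at least 3 of 8 marker genes (Foxj1, Ccdc153, Tmem212, Dynlrb2, Dnah5, Dnah12, Cfap43 and Spag16) and none of Ptprc, the pan-leukocyte gene CD45, or Cd79a, a B cell receptor subunit. The rule found 60 cells among 29439 barcodes that passed the quality limits of at least 500 UMIs, at least 300 genes and at most 10% mitochondrial UMIs. The barcodes came from the right lungs of 6 male hCTLA4 mice, which carry part of the human CTLA4 gene in place of the mouse sequence. Their age was given as 12 weeks, with no time point of the experiment named. All 6 mice had received bleomycin, a drug that scars the lung, in 2 oropharyngeal doses of 1.25 U per kg given 2 weeks apart. From day 21 after the second dose, 3 mice received control IgG1 and 3 received ipilimumab, an antibody against human CTLA4, at 5 mg per kg for 4.5 weeks. No group without bleomycin and no group without antibody was analysed, so every value below describes injured, treated lungs. Each mouse gave 1 10x Genomics 3′ library, with 42665284, 47919257 and 37666042 UMIs in IgG1 replicates 1, 2 and 3 and 47897924, 48497310 and 48612412 UMIs in ipilimumab replicates 1, 2 and 3.

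A motile cilium is built on an axoneme, a ring of microtubule doublets around a central pair. Outer and inner dynein arms along the doublets are the motors, radial spokes and the central pair steer them, nexin-dynein links hold neighbouring doublets together, and intraflagellar transport carries the parts from the cell body to the tip. A multiciliated cell first multiplies its centrioles on structures called deuterosomes, under the coactivators Mcidas and Gmnc. It then turns on the axonemal genes under Foxj1, a forkhead transcription factor, and the Rfx factors, which bind the X-box motif.

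The Rfx motif stood in few of the windows searched. RefSeq promoter windows of 300 bases (250 before and 50 after the transcription start, GRCm38.p6) were matched to 113 of the 140 ciliary genes that the rule did not use. The X-box, a consensus of 14 letters with 4 free positions that reads the same on both strands, was present in the windows of 5 of these genes (4.42%), of 143 of all 27025 genes (0.529%) and of 0.891% of the other genes that reached 50 counts per 1000000 UMIs in the ciliated cells. The forkhead motif TGTTTAC, searched on both strands, was present in 3.54% of the ciliary genes and 4.05% of all genes. The 7 rule genes with a window had 0 X-box matches and 1 forkhead match. Genes of the list without a window, and letters outside it, were not searched. The 5 X-box matches are shown because their genes are members of 5 different parts of the ciliary machinery, each with 8 bases on either side and the motif in capitals, 5′ to 3′ on the strand of the gene:
Ak9: gcccacagGTTTCCAAGGCAACcgcctaac
Cfap298: gggttttgGTTGCCCGGGCAACagctactt
Pifo: gcggttccGTTCCCTTGGCAACgtagtaca
Iqca: gccttgcaGTTGCCACGGAAACggaaacat
Ccdc151: cgcgggcgGTTTCCTTGGGAACgtgggcgg
The windows lie at chr10:41303915-41303944 on the plus strand for Ak9, an adenylate kinase, and at chr16:90935016-90935045 on the minus strand for Cfap298, a dynein assembly factor. Those of Pifo, a cilium formation protein, Iqca, a nexin-dynein link subunit, and Ccdc151, an outer arm docking protein, are on the minus strand at chr3:106001496-106001525, chr1:90153515-90153544 and chr9:22002647-22002676. The motif began 11, 188, 20, 100 and 34 bases before the transcription start in that order, so that the Ak9 match ran across the start and the other 4 lay upstream of it. Summed over the 60 cells, these genes had 437, 398, 325, 253 and 69.9 counts per 1000000 UMIs.

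The chosen cells carried the ciliary programme well beyond the genes that chose them. The 140 other ciliary genes took a median of 4.72% of a chosen cell's UMIs and a median of 0.061% in the 29379 other passing barcodes. In 59 of the 60 cells the ciliary genes took at least 1% of UMIs, with 1.34% the lowest of the 59 and 6.52% the highest. The exception, at 0.113%, had 18598 UMIs and is described below. Since the barcodes were chosen by expression, comparisons with the other barcodes are descriptions, with no test.

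The cells fell into deep and shallow ones with few in between. Of the 60, 42 had at least 5000 UMIs, with a median of 27095, and 18 had between 550 and 2300. All 40 cells with all 8 markers were deep, whereas 3 to 5 markers were found in 15 cells, of which 1 was deep. At the edge of the rule, the 5 cells with exactly 3 markers had a median of 761 UMIs, and 4 of them had at least 1% ciliary UMIs. Just outside it, of the 23 barcodes with 2 markers and no Ptprc or Cd79a, 4 had at least 1% ciliary UMIs and at most 766 UMIs in all, while the other 19 had at most 0.184%.

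**Figure D1:**
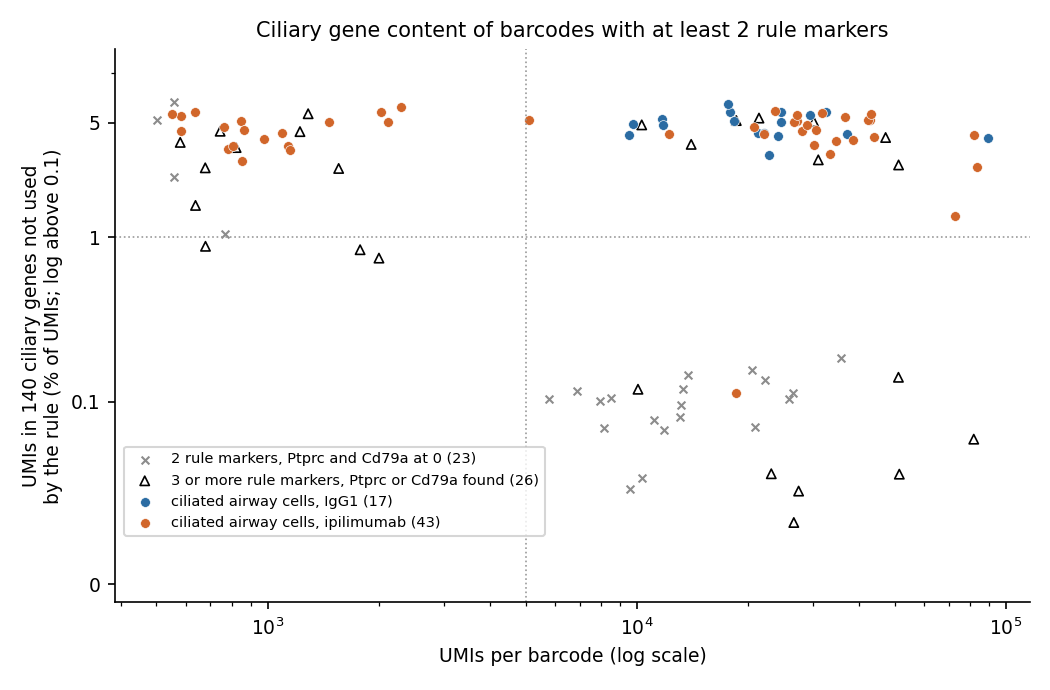
Points are the 60 ciliated airway cells (blue for IgG1, orange for ipilimumab), the 23 barcodes with 2 markers and no Ptprc or Cd79a (crosses) and the 26 with at least 3 markers and Ptprc or Cd79a (triangles), placed by their UMIs (x axis, log scale) and by the percent of them in the 140 ciliary genes not used by the rule (y axis). The ciliated airway cells lie above 1% but for 1 cell at 0.113%, and the shallow cells under 5000 UMIs come from ipilimumab mice.

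Left out of the rule in turn, each marker was still found in most cells chosen by at least 3 of the other 7. Among such cells of at least 5000 UMIs with at least 1% ciliary UMIs, 7 of the markers were found in 41 of 41 and Dynlrb2, a dynein light chain, in 97.6%. Over all depths the share ran from 79.7% for Foxj1 (47 of 59) to 96.4% for Tmem212 (54 of 56), a membrane protein of unsettled function. The other passing barcodes, whose median was 5946 UMIs, gave the background. Foxj1 was found in 0.419% of them, Ccdc153, a coiled-coil ciliary protein, in 0.221%, Tmem212 in 0.211%, and Dnah5, an outer arm heavy chain, in 0.174%. This background included 29 barcodes with at least 1% ciliary UMIs, the deepest with 51180 UMIs. Of the 29, 16 held at least 3 markers and Ptprc or Cd79a. Their part in these shares and in the ratios below was not tested. Cfap43, an axonemal protein, and Dnah12, an inner arm heavy chain, were less selective. Cfap43 was found in 13.6% of the other barcodes and in 21.7% of B cell barcodes, and Dnah12 in 4.35% and in 8.07% of endothelial barcodes. Dynlrb2 was found in 14 of 144 alveolar type 2 barcodes (9.72%).

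Levels are given below as counts per 1000000 UMIs (CPM), summed over the cells of a mouse or of all mice. The kit reads transcript ends, so they were not divided by gene length, and the order of genes is one of UMIs. A ratio is the level in the ciliated cells over that in the other passing barcodes, with 1 CPM added to both. Of the 140 ciliary genes 137 were found, 121 of these had a ratio over 10 (88.3%) and the median ratio was 74.7. For comparison, 8.22% of all 16056 genes found had a ratio over 10, and the median ratio was 1.22. Among the 4074 genes of at least 50 CPM these values were 20.8% and 1.54. At least 50% of the deep cells held a UMI of 133 of the ciliary genes.

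The regulators were led by Rfx3 and Foxj1, at 621 and 578 CPM over all cells. By mouse, Foxj1 stood at 472, 661 and 751 CPM in the 3 IgG1 mice, in order of replicate, and at 480, 704 and 502 in ipilimumab replicates 1, 2 and 3, so that the groups overlapped. Foxj1 had a ratio of 292, while Rfx3 had 6.51, since the other barcodes also held Rfx3 at 94.6 CPM. Rfx2 had 164, Myb, which acts early in multiciliated differentiation, 180, and Sox2, an airway lineage factor, 126 CPM. Sox2 was close to absent elsewhere, with a ratio of 111. Of the 14 regulators other than Foxj1, which the rule used, all were found and 6 had a ratio over 10. Mcidas was found in 4 cells and Gmnc in 2.

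The dynein motors other than the rule genes Dnah5, Dynlrb2 and Dnah12 were abundant in the ciliated cells and low in the others. Without those 3, the outer arm list summed to 2571 CPM in the ciliated cells and 34.4 in the other barcodes, and the inner arm list to 3495 and 7.27. Outer arm Dnah5 stood at 1050, 772 and 1121 CPM in the IgG1 mice and 980, 1167 and 1026 in the ipilimumab mice, and Dnah9 and Dnah11, its partner heavy chains, at 652 and 504 over all cells. Of the 12 outer arm genes that the rule did not use 11 were found, Nme8 being the exception, and 10 had a ratio over 10. All 9 such inner arm genes had one, led by Dnah6 with 868 and Dnah3 with 578 CPM. The factors that assemble dynein arms in the cytoplasm were lower, at 1337 CPM for the list, led by Cfap298 (398) and Lrrc6 (265), with 10 of 11 found.

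The axonemal scaffold was as complete. All 19 genes of the radial spokes and central pair other than the rule gene Spag16 were found with a ratio over 10, and they summed to 6329 against 37.6 CPM. Cfap54, Spag17 and Hydin, which belong to the central pair, led it at 776, 724 and 694. Hydin stood at 997, 1102 and 796 CPM in the IgG1 mice and 592, 630 and 561 in the ipilimumab mice. Its groups did not overlap, and its adjusted p in the treatment test below was 0.740. These levels include the 4 ipilimumab cells described below as standing apart. The whole ciliary list split the same way with them, at 46552.5, 54508.4 and 47193.7 CPM with IgG1 and 38594.9, 45867.3 and 39906.9 with ipilimumab. Without those cells the list had 46882.8, 50618.2 and 44466.9 CPM in the ipilimumab mice, and its groups overlapped. Hydin was not recomputed by mouse without them. The nexin-dynein links and the axonemal ruler had 11 of 11 measured genes with a ratio over 10 and summed to 2375 against 7.52 CPM, led by the ruler protein Ccdc39 (465) and the link subunit Drc3 (367). Proteins on the inner face of the doublets, without the rule gene Cfap43, gave 18 of 19 genes with a ratio over 10.

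Transport and tubulin genes were shared more with other cells. Of 28 intraflagellar transport genes 19 had a ratio over 10, and the list summed to 5333 against 298 CPM, with Traf3ip1, the retrograde motor Dync2h1 and Ift43 at 605, 483 and 470. The tubulins and their modifiers summed to 6790 against 944, with 9 of 17 found genes over 10. Tppp3, a microtubule bundler, had 1993, and the tubulins Tuba1a and Tubb4b 1842 and 1764 CPM. The adenylate kinases Ak7 and Ak9, which recycle ATP in the axoneme, reached 634 and 437.

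Lipid binding, surface and detoxification genes were among the most abundant. Sec14l3, a lipid transfer protein, had the most UMIs of the ciliary list. It stood at 2816, 2701 and 2672 CPM in the 3 IgG1 mice, in order of replicate, and at 2953, 2407 and 2039 in ipilimumab replicates 1, 2 and 3, with overlapping groups and a ratio of 556. Cd24a, a surface glycoprotein used to sort these cells, had 1817 CPM. Aldh1a1, a retinal and aldehyde dehydrogenase, had 2285 with a ratio of 246, Gstm1, a glutathione transferase, 1141, and Prdx6, a peroxiredoxin, 837. The 18 detoxification and redox genes summed to 8038 against 1196 CPM. Krt8 and Cldn3, an epithelial keratin and a claudin, had 1156 and 743, and 7 of the 8 general epithelial genes had a ratio over 10.

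Among genes of at least 50 CPM and without the 8 rule genes, of the 20 with the highest ratios (306 to 913), 11 were on the ciliary list, among them Dnah6 (409), Hydin (379), Spag17 (373) and Cfap44. Rp1, a microtubule-binding protein known from photoreceptors, had 522 and Cfap299 603. The top entry, Bpifa1, a secreted airway defence protein, came from 1 cell that held 2674 of its 2675 UMIs, and its ratio without the 4 cells described next was 0.860. Reg3g, a secreted antibacterial lectin, was found in 5 cells, and its ratio was 766 with and 508 without those 4 cells.

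**Figure D2:**
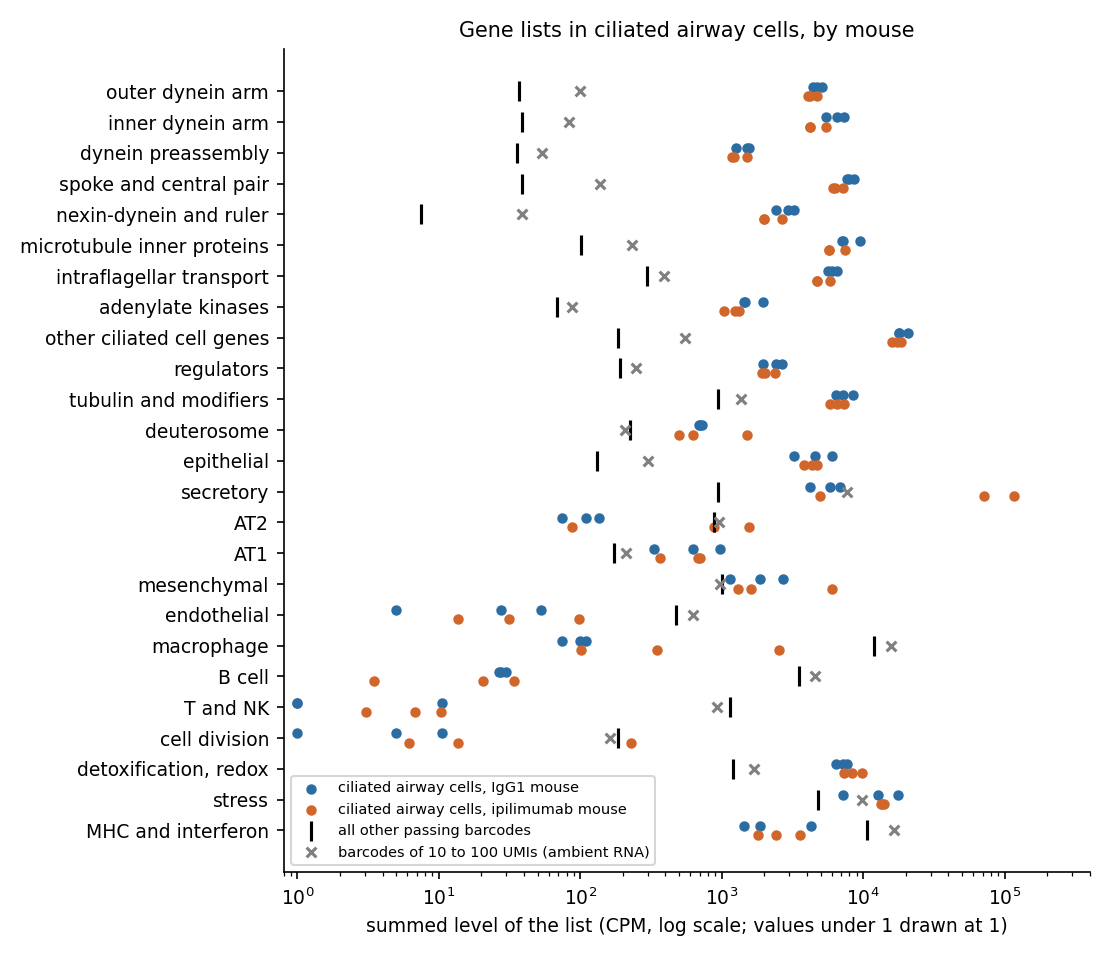
Points give the summed CPM of each gene list (x axis, log scale) in the ciliated airway cells of each IgG1 (blue) and ipilimumab (orange) mouse, bars the same in all other passing barcodes, and crosses the same in barcodes of 10 to 100 UMIs, taken as ambient RNA. The axonemal lists lie far to the right of both, while macrophage, B cell and T and NK cell lists lie to their left, and the secretory, AT2 and macrophage lists of some ipilimumab mice stand apart from the rest.

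There were 4 cells that stood apart, all from ipilimumab mice, and they were chosen after their values were seen. The first, in replicate 1, had 72830 UMIs, of which 44.5% were airway secretory genes, with 30469 of Scgb1a1, the club cell secretoglobin, 1150 of Scgb3a2 and 246 of the surfactant gene Sftpa1, beside all 8 markers and 1.34% ciliary UMIs. The second, in replicate 3, had 83313 UMIs, of which 25.9% were secretory, with 14299 of Scgb1a1, 2674 of Bpifa1 and 1852 of Scgb3a1, and it also had 764 of Lyz2, the myeloid and alveolar lysozyme, and 2.67% ciliary UMIs. Both thus combined deep ciliary and deep secretory counts under 1 barcode. No doublet caller was run, and whether such barcodes hold more than 1 cell was not tested.

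The third, in replicate 2, had 3 markers, 0.113% ciliary UMIs and 5.72% mesenchymal UMIs, with 761 of Mgp, a matrix protein, 120 of Gsn, 56 of Col1a2 and 50 of Col1a1. Its leading lists thus went against the name, and it is kept in the counts because the rule chose it. The fourth, also in replicate 2, had 38497 UMIs, 3.91% ciliary UMIs and UMIs of all 12 centriole amplification genes and all 8 cell division genes. It had 76 UMIs of Cdc20b, found in no other ciliated cell, 51 of Deup1, the deuterosome scaffold, against at most 8 elsewhere, 37 of Top2a and 12 of Cdk1. It also had 9 of Mcidas, against at most 1 in each of 3 other cells, and 6 of Foxn4. Over all other ciliated cells Deup1 was found in 27, Ccno in 11 and Stil in 2.

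Markers of other cells differed by list outside these 4. Without the 4, the alveolar type 2 list had 74.3, 110 and 135 CPM in the IgG1 mice and 163, 87.0 and 340 in the ipilimumab mice, and the macrophage list 74.3, 110 and 100, and 452, 100 and 220. With them, ipilimumab replicates 1, 2 and 3 had 1561, 87.1 and 887 for the alveolar type 2 list, in which 9 of 10 genes were found and Sftpa1 had 46.3% of the UMIs. For the macrophage list the same mice had 347, 101 and 2553, against 11851 in the other barcodes. Lyz2 had 84.9% of it, and C1qa, C1qb, C1qc, Marco and Fabp4 were not found. Cd3e of T cells and Ms4a1 of B cells were not found, and of 7 basal cell genes Krt15 alone was, with 2 UMIs. The mesenchymal and alveolar type 1 lists were higher than in the other passing barcodes, and each was led by 1 gene. Without the 4 cells the mesenchymal list had 1140, 2701 and 1856 CPM in the IgG1 mice and 2017, 2939 and 1578 in the ipilimumab mice, against 998 in the other barcodes. Of its 1958 CPM over all mice, 1954 were Gsn, the actin-severing protein gelsolin, while Col1a1 and Col3a1 were at 0 and Col1a2, Dcn and Mgp at 0.895 each. The alveolar type 1 list had 976, 331 and 625 in the IgG1 mice and 669, 413 and 721 in the ipilimumab mice, against 174, led by Hopx, a homeodomain protein, with 401 over all mice and with Ager at 0.895. By cell, macrophage genes took a median of 0.359% of UMIs in the 18 shallow cells and 0.0101% in the deep cells without the 4, of which the highest had 0.0586%. In 5 shallow cells, all from ipilimumab replicate 1, they took more than the 1.19% of the other passing barcodes, up to 1.88%. Their part in the results by treatment was not tested by cell.

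Secretory genes were part of the ordinary profile as well. Cbr2, a carbonyl reductase of club cells, stood at 4349, 2673 and 3853 CPM in the 3 IgG1 mice, in order of replicate, and at 4174, 2828 and 3132 in ipilimumab replicates 1, 2 and 3, and was found in 40 of 42 deep cells. Its groups overlapped. Cyp2f2, a club cell cytochrome P450, had 1893 over all cells. Without the 4 cells the secretory list summed to 6906, 4216 and 5804 in the IgG1 mice and 7470, 6091 and 6152 in the ipilimumab mice, against 942 in the other barcodes. In ambient RNA the list differed between libraries, at 1502, 2552 and 680 CPM in the IgG1 mice and 18140, 17720 and 2982 in the ipilimumab mice. Ambient RNA was estimated at 0.56%, 0.63% and 0.81% of the ciliated cells' UMIs in the IgG1 mice. In the ipilimumab mice the estimate was 2.74%, 0.58% and 7.26%, with the 4 cells included. The estimate rests on UMIs of the macrophage, B cell and T and NK cell lists. In ipilimumab replicate 3 these numbered 841, of which 764 were Lyz2 in the secretory-rich cell described above. Its 7.26% was not recomputed without that cell. The summed level of the secretory list was not tested with ambient RNA subtracted. With the 4 cells, ipilimumab replicates 1 and 3 stood at 115740 and 71071, and Scgb1a1 had 75.0% of the list's UMIs.

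With depth made equal, variation between cells was described for the ciliary list and for single genes. The 38 deep cells other than those 4 were thinned at random to 5000 UMIs each, leaving out the 18 shallow cells. The ciliary list then took 150 to 319 UMIs per cell, with a mean of 243 ± 41.9 (SD, n = 38 cells). Counting error alone would give an SD of 15.6, to which differences between separate cells and mice add. No other list was summed for comparison. By mouse the mean was 234, 290 and 248 UMIs in IgG1 replicates 1, 2 and 3 (8, 2 and 7 cells) and 243, 267 and 220 in ipilimumab replicates 1, 2 and 3 (7, 6 and 8 cells), so that the groups overlapped. Among 2350 genes with a mean of at least 0.5 UMIs, the median Fano factor (variance over mean) was 1.18 for 120 ciliary and rule genes and 1.20 for the others. Counting error makes up most of a gene's variance at such values, and genes were not matched by mean. These medians therefore cannot show whether ciliary genes varied more or less than others. The highest-ranked ciliary gene was AU040972 at rank 25, with a Fano factor of 8.47. It stood at 1193, 524 and 385 CPM in the IgG1 mice and 769, 1466 and 2507 in the ipilimumab mice, with overlapping groups. The genes that varied most were Reg3g (46.5), the calcium-binding S100a6 (39.8), Gm42418, which lies in the ribosomal RNA repeat (33.9), and Galntl6 (30.8).

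The study asked what CTLA4 blockade does to the scarred lung, and the ciliated cells were therefore counted by treatment. They were a larger share of passing barcodes in each ipilimumab mouse, by a narrow margin and in few cells. There were 8, 2 and 7 in IgG1 replicates 1, 2 and 3 and 23, 9 and 11 in ipilimumab replicates 1, 2 and 3. As shares of passing barcodes, these were 0.172% (exact 95% binomial interval 0.0743 to 0.339), 0.0452% (0.00548 to 0.163) and 0.205% (0.0823 to 0.421) in the IgG1 mice. In the ipilimumab mice they were 0.276% (0.175 to 0.414), 0.207% (0.0947 to 0.393) and 0.258% (0.129 to 0.461). The intervals cover counting error only, and they overlap between most mice. The mean share was 0.141% ± 0.0842 with IgG1 and 0.247% ± 0.0357 with ipilimumab (SD, n = 3 mice each), a ratio of 1.76. An exact two-sided permutation test gave p = 0.1, the smallest that 3 mice against 3 allow.

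The difference depended on what the cells were divided by. As a share of the barcodes without Ptprc and Cd79a they were 2.30% ± 1.19 with IgG1 and 2.20% ± 0.831 with ipilimumab. Epithelial barcodes were those of them with at least 2 of the 8 general epithelial genes, and 55 of the 60 ciliated cells were among these. Those 55 were 52.3% ± 44.3 and 42.8% ± 14.8 of the epithelial barcodes (SD, n = 3 mice each for both shares). The exact permutation p was 0.9 for both. By mouse, the first share was 2.64%, 0.976% and 3.27% with IgG1 and 1.25%, 2.77% and 2.58% with ipilimumab. The epithelial barcodes numbered 18, 16 and 7 with IgG1 and 72, 17 and 20 with ipilimumab. Ciliated cells among them numbered 8, 2 and 7, and 19, 8 and 11. In ipilimumab replicate 1 the alveolar type 2 barcodes alone numbered 128, more than its 72 epithelial barcodes, so this limit left out part of the epithelium. In IgG1 replicate 3 all 7 epithelial ones were ciliated cells. Neither share was tested with a mouse left out. Depth also differed between libraries. In ipilimumab replicate 1, 22056 barcodes reached 100 UMIs, against 4834 to 6230 in the other libraries, and 65.3% of its passing barcodes had fewer than 5000 UMIs, where the others had 15.4% to 34.7%. Of the 18 shallow ciliated cells 15 were its own, 1 and 2 were in ipilimumab replicates 2 and 3, and 0 in the IgG1 mice. Among barcodes of at least 5000 UMIs, the deep cells numbered 8, 2 and 7 with IgG1 and 8, 8 and 9 with ipilimumab. Their share was 0.191% ± 0.107 and 0.276% ± 0.0135 (SD, n = 3 mice each), with overlapping groups (exact permutation p = 0.2). Without ipilimumab replicate 1 the log2 ratio of mean shares was 0.73, where it was 0.81 with it. Without IgG1 replicate 2, which had 2 cells, it was 0.39.

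**Figure D3:**
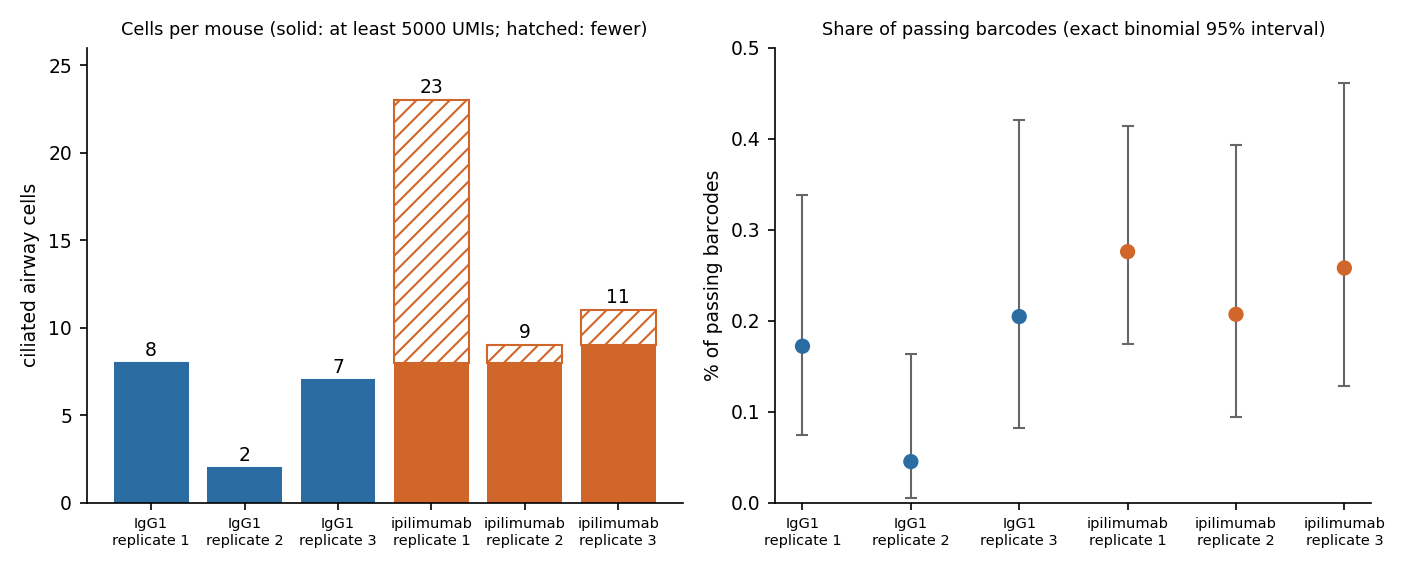
Left, ciliated airway cells per mouse, solid for cells of at least 5000 UMIs and hatched for shallower ones. Right, their share of passing barcodes with exact 95% binomial intervals; the lowest ipilimumab share, 0.207%, lies just above the highest IgG1 share, 0.205%.

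A further 26 barcodes with at least 3 markers held Ptprc or Cd79a, and 16 of them had at least 1% ciliary UMIs. These 16 were 0, 2 and 2 in IgG1 replicates 1, 2 and 3 and 9, 1 and 2 in ipilimumab replicates 1, 2 and 3. With the ciliary genes at 1% or more in place of the 2 immune genes, the mean share was 0.175% ± 0.0863 with IgG1 and 0.299% ± 0.0886 with ipilimumab (SD, n = 3 mice each), with overlapping groups (exact permutation p = 0.2). Of the 15 pairs of libraries, the passing barcodes shared by a pair numbered 0 to 16. Between ciliated cells 0 barcodes were shared, and 2 of theirs also passed in another library.

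No gene passed the test for a change with ipilimumab. UMIs were summed over the cells of each mouse, and IgG1 replicate 2, with 2 cells, was left out, so that 2 IgG1 and 3 ipilimumab mice were compared. Of 5907 genes tested with edgeR's quasi-likelihood test, 0 (0%) had a Benjamini-Hochberg adjusted p under 0.05 with a log2 fold change over 0.3 in size. At an unadjusted p under 0.05 there were 389 (6.59%), of which 200 (3.39%) were higher and 189 (3.2%) lower with ipilimumab, and the groups did not overlap for 1420 (24%). DESeq2 called Fmo2, Galntl6 and Scgb3a2. The 10 genes with the lowest p, 5 in each direction, are described next as values. The mice are named in the labels as separate replicates, and the summed counts of a mouse rest on 7 to 23 cells.

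Among the genes higher with ipilimumab, Fmo2, a flavin monooxygenase of the lung (chromosome 1), had 0, 0 and 0 UMIs in IgG1 replicates 1, 2 and 3 and 27, 24 and 29 UMIs in 1, 4 and 2 cells of ipilimumab replicates 1, 2 and 3. Against the 3 counts that 0 allows over the IgG1 mice in the test, it was at least 11.4-fold higher (adjusted p = 0.0917), but 59 of its 80 UMIs lay in the 4 cells that stood apart. With every mouse included in the edgeR test Fmo2 was called (adjusted p = 0.0444), and without those 4 cells it was not tested. Galntl6, a member of the GalNAc transferase family (chromosome 8, 57774052 to 58912640), had 0, 3 and 0 UMIs in the IgG1 mice and 45, 144 and 499 UMIs in the ipilimumab mice. It was found in 1 of 17 deep IgG1 cells and 14 of 25 deep ipilimumab cells, 13 of 21 without the 4 cells, and 66.0% of its UMIs lay in 1 cell of ipilimumab replicate 3. Its adjusted p was 0.411, and 0.00137 in the edgeR test with a replicate block. The ratio of its summed levels, ipilimumab over IgG1, was 108 over all mice, 38.1 without that cell and 46.0 without ipilimumab replicate 3. All 3 ratios rest on 3 UMIs in the IgG1 mice. The fitted log2 fold change, 10.62, rests on 0 UMIs in the IgG1 mice tested and is not a measured size. It was 4.59 with Ptprc and Cd79a not used and the ciliary genes at 1% or more. Galntl6 was spread over more cells than Fmo2, and both had 0 UMIs in the IgG1 mice tested. The 3 Galntl6 UMIs of IgG1 replicate 2, left out of the test, came from 36288 UMIs in all, where 1 UMI is 27.6 CPM.

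Unc79, a subunit of the NALCN sodium leak channel, had 17.0 and 30.6 scaled CPM in IgG1 replicates 1 and 3 and 114, 147 and 101 in ipilimumab replicates 1, 2 and 3 (log2 fold change 2.30 ± 0.42 SE). Dusp1, a phosphatase that turns off stress kinases, had 305 and 163 against 545, 609 and 689 (1.40 ± 0.29), and Sult1d1, a sulfotransferase, 67.8 and 10.2 against 150, 444 and 336 (3.02 ± 0.64). Among the 5 mice tested their groups did not overlap, and the adjusted p of the 3 genes was 0.411, 0.524 and 0.524. In the mouse left out of the test, IgG1 replicate 2, Dusp1 had 0 UMIs and Sult1d1 2. Single cells held much of Dusp1, with 73 of 134, 125 of 166 and 103 of 191 UMIs in 1 cell each of ipilimumab replicates 1, 2 and 3, another 37 in the mesenchymal-rich cell of replicate 2, and 30 of 32 in 1 cell of IgG1 replicate 3. Unc79 had 5 UMIs in IgG1 replicate 2, which is 138 CPM before scaling and lies within the 95.2, 139 and 86.2 CPM of the ipilimumab mice on that scale, so that with all 6 mice its groups overlapped.

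Among the genes lower with ipilimumab, Ctnna3, an alpha-catenin of cell junctions, had 147 and 138 scaled CPM in IgG1 replicates 1 and 3 and 32.5, 40.3 and 46.9 in ipilimumab replicates 1, 2 and 3 (log2 fold change -1.81 ± 0.32 SE, adjusted p = 0.411). Kctd8, an auxiliary subunit of GABA-B receptors, was the most abundant of the 10, at 1408 and 1020 against 545, 539 and 577 (-1.13 ± 0.22, adjusted p = 0.411). It was found in 17 of 17 deep IgG1 cells and 22 of 25 deep ipilimumab cells, and 1 cell each held 139 of the 249 UMIs of IgG1 replicate 1 and 90 of the 200 of IgG1 replicate 3. Of Ctnna3, 3 cells each held all 26 and 27 UMIs of those mice. In IgG1 replicate 2, left out of the test, Ctnna3 had 0 UMIs and Kctd8 14, which is 386 CPM before scaling and lies below the 456, 512 and 493 of the ipilimumab mice on that scale. Zfp804b, a zinc finger gene, had 96.1 and 56.1 against 0, 0 and 7.22 from 30 UMIs in all. Mast4, a kinase, and Errfi1, an inhibitor of EGF receptor signalling, had log2 fold changes of -1.05 ± 0.22 and -1.61 ± 0.34 SE (adjusted p = 0.524 for both). A single cell of IgG1 replicate 3 held 36 of its 37 Errfi1 and 67 of its 78 Mast4 UMIs, and 1 cell of IgG1 replicate 1 held 42 of its 68 Errfi1 UMIs. In IgG1 replicate 2, Zfp804b and Errfi1 had 0 UMIs, and Mast4 had 5, or 138 CPM before scaling, below the 156, 209 and 157 of the ipilimumab mice on that scale. For Ctnna3, Kctd8, Mast4, Errfi1 and Zfp804b the left-out mouse thus did not lie with the other IgG1 mice above the ipilimumab mice, at a depth of 36288 UMIs where 1 UMI is 27.6 CPM. A fit was made without the 22 of the 60 cells that held at least 3 genes of the endothelial, mesenchymal, macrophage or T and NK cell list. IgG1 replicate 1 was the 1 IgG1 mouse with at least 5 cells left and was set against 3 ipilimumab mice. It lost 1 cell, of 36994 UMIs, whose 3 endothelial genes took 0.0189% of UMIs. This cell held 139 of the mouse's 249 Kctd8 UMIs, 16 of its 26 Ctnna3 UMIs and 35 Mast4 UMIs. The log2 fold changes of Kctd8, Ctnna3 and Mast4 were then -0.14, -0.26 and -0.16, where they were -1.34, -1.85 and -1.08 with all cells of the same 4 mice. Those of Sult1d1 and Dusp1 were 1.30 and 0.94, where all cells of the 4 mice gave 2.19 and 1.02.

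**Figure D4:**
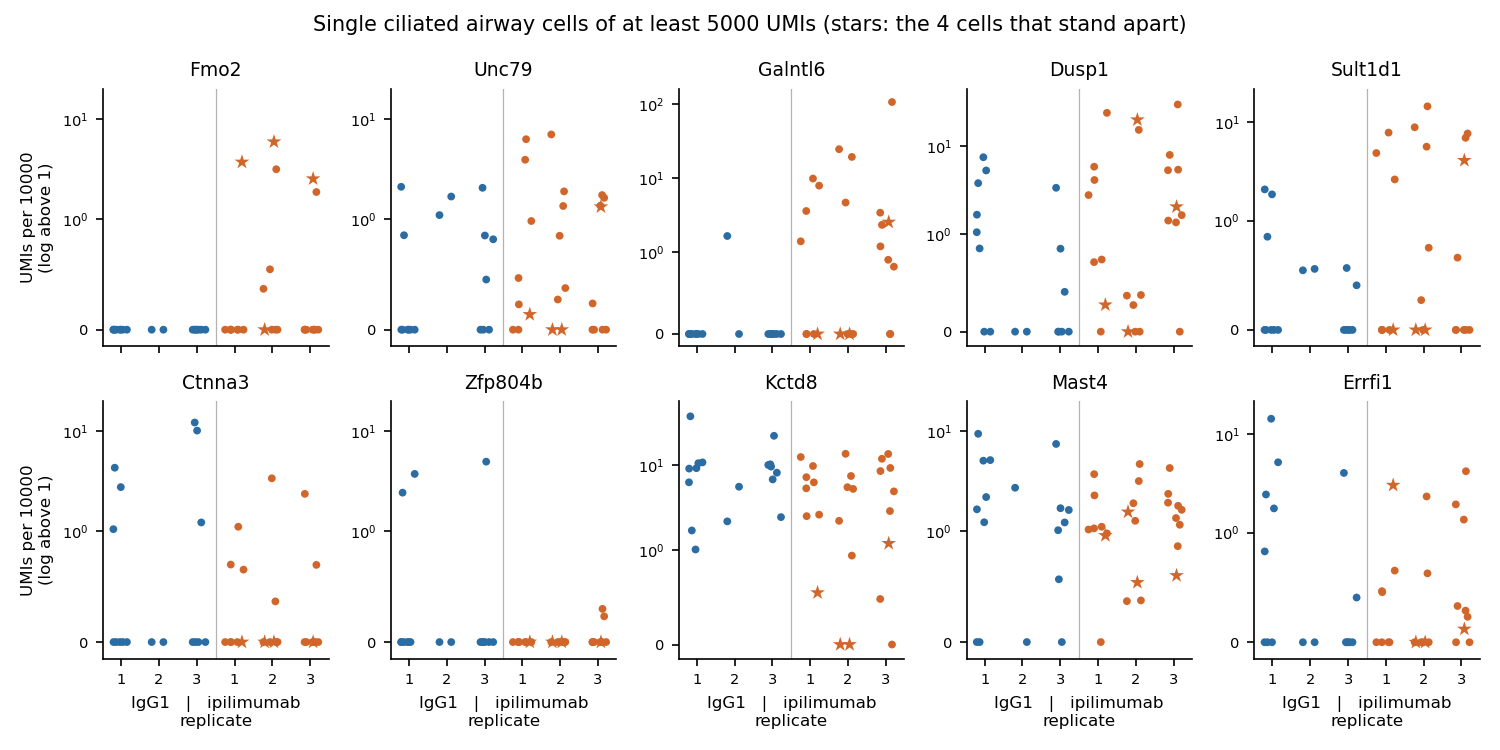
UMIs per 10000 of the 10 genes in each deep ciliated airway cell (y axis, log above 1), by mouse, with stars for the 4 cells that stand apart. Fmo2 lies at 0 in all 17 deep IgG1 cells and is led by stars, while Kctd8 is found in 17 of 17 and in 22 of 25 ipilimumab cells.

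The ciliary programme showed no gene that passed the test and a median change near 0. Of the 132 ciliary genes tested, 49 had a positive and 83 a negative log2 fold change, with a median of -0.07, beside 0.00485 over all 5907 genes. At an unadjusted p under 0.05, 0 were higher and 5 lower (against 3.39% and 3.2% of all genes). These were the doublet protein Cfap45 (-0.66), Rgs22 (-0.59), the link subunit Iqcg (-0.55), the cytochrome P450 Cyp2s1 (-0.51) and Dnah6 (-0.50), all with an adjusted p of 0.663 to 0.735. The groups did not overlap for 34, of which 4 were higher with ipilimumab (24% of all genes did not overlap, 12.5% higher and 11.5% lower). Without the 4 cells that stood apart, 3 of which had the lowest ciliary percentages of the 42 deep cells, the median was 0.030.

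By role, the median log2 fold change was -0.26 for the inner arms (10 tested, 8 negative), -0.11 for the outer arms (13 tested, 9 negative) and -0.16 for the nexin-dynein links and ruler (11 tested, 10 negative). It was 0.01 for spokes and central pair, -0.04 for intraflagellar transport and 0.04 for the regulators. When a mouse was left out these 3 ran from -0.11 to -0.02, -0.16 to 0.02 and -0.10 to 0.18, and the inner arms from -0.36 to -0.15. The lists here include rule genes, which chose the cells: Dnah12 (inner arms), Dnah5 and Dynlrb2 (outer arms), Spag16 (spokes) and Foxj1 (regulators). Their medians were not recomputed without these genes. Without the 4 cells the inner arms, outer arms and links had -0.12, -0.03 and -0.03, and without IgG1 replicate 3 the outer arms and links had 0.018 and 0.018. Foxj1 itself had 503 and 765 scaled CPM in IgG1 replicates 1 and 3 and 573, 741 and 588 in ipilimumab replicates 1, 2 and 3, with overlapping groups.

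Of 15 detoxification and redox genes tested, 11 had a positive log2 fold change, as had 2985 of all 5907 genes, and 4, Sult1d1, Cyp2a5 (3.25), Gsta3 (1.28) and Prdx6 (0.74), had an unadjusted p under 0.05 (3.39% of all genes were higher at that level). Prdx6 had 650 and 627 scaled CPM in IgG1 replicates 1 and 3 and 1126, 876 and 1194 in ipilimumab replicates 1, 2 and 3 (adjusted p = 0.638). Its groups did not overlap. Cyp2a5, a cytochrome P450, had 0.12 without the cells that held other lineage lists (1 IgG1 mouse, where all cells of the same 4 mice gave 2.39), and its log2 fold change was 4.97 in the other passing barcodes and 2.57 in ambient RNA. With ambient RNA subtracted, its log2 fold change in the ciliated cells was 3.31, where the main fit gave 3.25. The part of the other passing barcodes in that value was not tested. The median over the 15 was 0.32, 0.38 without the 4 cells, and 0.32 to 0.53 when a mouse was left out. The secretory list had a median of 1.68 over 5 genes tested, which was 0.33 without the 4 cells, and the alveolar type 2 list 4.74 over 3 genes, which was 0.30. Leaving out each mouse gave 0.77 (without ipilimumab replicate 3) to 6.30 (without IgG1 replicate 1) for the secretory list and 0.26 (without ipilimumab replicate 1) to 5.29 (without ipilimumab replicate 2) for the alveolar type 2 list, which was 0.44 without ipilimumab replicate 3. For the macrophage list, 3 genes tested, it was 2.57 with and 2.51 without them, and 1.56 without ipilimumab replicate 3. The stress list had a median of -0.10 over 11 genes, antigen presentation and interferon -0.17 over 13, and senescence -0.01 over 5. Their directions turned with single mice. Without IgG1 replicate 1 the stress list had 0.33 and antigen presentation and interferon 0.80, without IgG1 replicate 3 they had -0.25 and -1.27. Without ipilimumab replicate 2 the stress list had 0.12, antigen presentation and interferon lay between 0.018 and 0.24 without any 1 ipilimumab mouse, and senescence ran from -0.20 to 0.14.

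**Figure D5:**
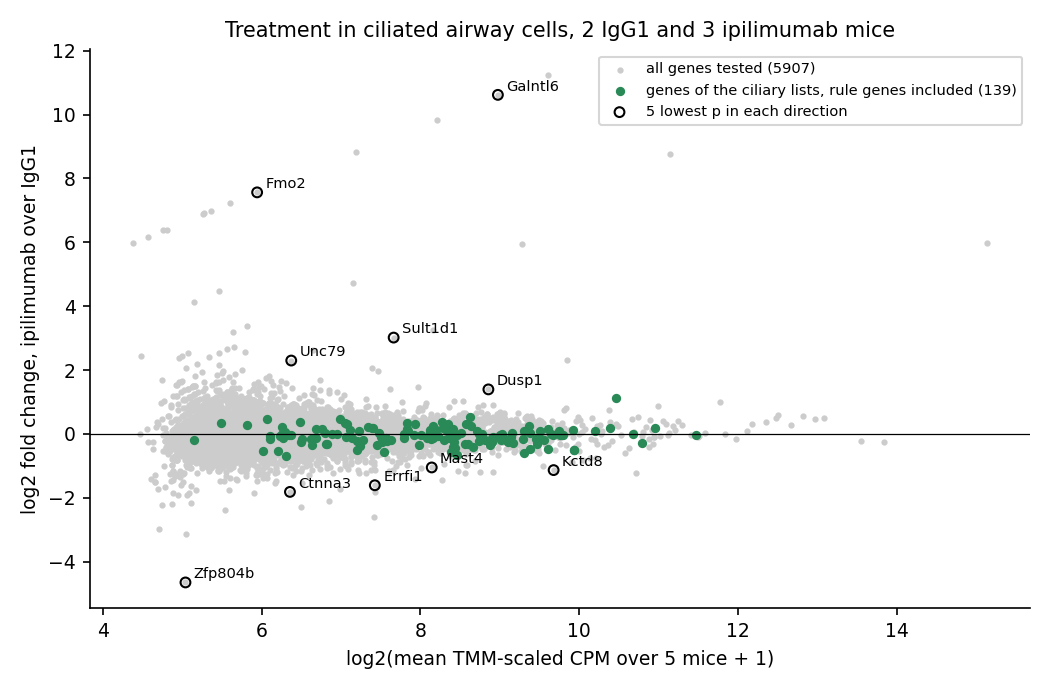
Log2 fold change of ipilimumab over IgG1 in the ciliated airway cells (y axis) against mean scaled CPM over 5 mice (x axis, log2), for 5907 genes. The ciliary and rule genes (green) lie between -0.68 and 1.12, with a median of -0.07 for the ciliary genes. The 5 genes with the lowest p in each direction are circled, none with an adjusted p under 0.05.

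The treatment change in the ciliated cells could also be set against that in the remaining barcodes of the same mice. In a quasi-likelihood fit with an interaction term and the mouse as a block, 0 of 5907 genes (0%) had a difference at an adjusted p under 0.05, and 402 had an unadjusted p under 0.05.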

How the data were processed

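The authors made 10x Genomics 3′ v3.1 libraries from the digested right lung, aiming at 5000 cells each, and aligned them to mm10. The submitters' processing notes name Cell Ranger 7.0.0, while the study's methods name an earlier version. Which one made the deposited files is unsettled. The deposited values are raw UMI counts per gene and barcode, with 709949 to 874198 barcodes and 32285 genes per file, filled and empty droplets together, so cells had to be chosen again here. Thresholds are given above where first used. The members and gene lists were chosen with earlier results of these data known.

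Counts were summed over cells per mouse (36288 to 324706 UMIs) and tested in edgeR 4.0.16 (TMM, filterByExpr, quasi-likelihood, R 4.3.3), in mice with at least 5 cells. Scaled CPM are TMM-scaled. DESeq2 1.42.0, no filter, other member rules, ambient RNA subtraction and leaving out each mouse were alternatives. The test was also tried on simulated counts, and no result above rests on them. Named genes were the rule genes, the top genes of each list, those most abundant or most enriched, and the 5 lowest p per direction. Symbols are those of the deposited feature lists, and coordinates are those of GENCODE and RefSeq on GRCm38. Cell clusters and doublet calls were not made, so barcodes of mixed content remain.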

Additional observations from a re-analysis of the deposited data

Results flagged for a closer look

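Ciliary RNA was also present in barcodes that the choice of cells left out. Of the 26 passing barcodes with at least 3 markers and a UMI of Ptprc or Cd79a, 16 had at least 1% of their UMIs in the 140 ciliary genes, a signal outside the 60 cells. They stood among the other passing barcodes above, and were counted with the ciliated cells only where Ptprc and Cd79a were not used. Ptprc was found in 13 of them and Cd79a in 3, and 11 held exactly 1 UMI of these genes. They had 580 to 51180 UMIs, a median of 3.93% ciliary UMIs, and 8 had at least 5000 UMIs. At least 3 macrophage genes were found in 11 and at least 3 T or NK cell genes in 1. A barcode of ipilimumab replicate 2 with 51180 UMIs held 595 macrophage UMIs, and 1 of IgG1 replicate 2 with 47202 UMIs held 41 T or NK cell UMIs. Whether they hold more than 1 cell was not tested.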

How the results depend on the processing

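The log2 ratio of mean shares, 0.81, kept its sign under 7 alternatives and turned under 2, to -0.062 as a share of barcodes without Ptprc and Cd79a and -0.29 as a share of epithelial barcodes. Leaving out each mouse gave 0.39 to 1.19 for the share of passing barcodes. The 2 turned values were not recomputed with a mouse left out. In the first, ipilimumab replicate 1 was the lowest of its group at 1.25%. In the second, which left out part of the epithelium, all 7 epithelial barcodes of IgG1 replicate 3 were ciliated cells. The count of genes called, 0, was 2 without cells that held other lineage lists (4 mice), 3 in DESeq2, 148 with no filter on low counts (103 higher, 45 lower, of 15995 tested), 1 with every mouse and 8 with a replicate block, and 0 in 12 of 19 alternatives. Leaving out each mouse gave 0 to 4, with Isg15 and Ifit3, carried by 1 cell, lower without IgG1 replicate 3, and Sftpa1, Sftpd, Scgb3a2 and Scgb1a1 higher without ipilimumab replicate 2. In each of the fits without an IgG1 mouse, the lone one was assumed to vary like the others. The labels do not state that same-numbered mice were paired. Such mice deviated together with correlations of -0.0142, 0.28 and 0.131 over 1000 genes, which cannot show whether they were. The interaction called 0 genes in every such fit. The median of the ciliary list, -0.07, was -0.12 to -0.03 when a mouse was left out and 0.030 without the 4 cells that stood apart, an alternative chosen after seeing the data. For the 10 genes named by p, 168 of 182 values under alternatives had the same direction without a call, 14 the same direction with one, and 0 the opposite direction. Sizes changed more without cells that held other lineage lists, which left 1 IgG1 mouse. Kctd8, Ctnna3 and Mast4 went from -1.13, -1.81 and -1.05 to -0.14, -0.26 and -0.16, and Errfi1 from -1.61 to -2.28. Sult1d1, Dusp1 and Unc79 went from 3.02, 1.40 and 2.30 to 1.30, 0.94 and 1.91, while Zfp804b was not tested there. Fmo2 and Galntl6 had 0 UMIs in the IgG1 mice tested. Their fitted values, 7.56 and 10.62 in the main fit and 6.49 and 8.33 there, are not measured sizes. Of 136 medians of 17 lists, 25 moved by more than the spread between mice. The causes of these differences were not tested. A test limited to mice with at least 10 cells could not be made, since 2 ipilimumab mice and 0 IgG1 mice had as many. Alternatives at 5000 UMIs, with Ptprc and Cd79a not used, and without secretory-rich cells were also chosen after seeing the data. With 60 cells, levels near 1 UMI per mouse and changes carried by 1 cell cannot be told apart from chance sampling of cells.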

Other observations

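Isg15 and Ifit3, which interferon induces, had 91 and 112 UMIs over the 60 cells, and 1 cell of IgG1 replicate 1 held 84 and 110 of them (92.3% and 98.2%). Reg3g was found in 3 cells of ipilimumab replicate 2 and 2 of replicate 3, with 73 and 1006 UMIs, and in 0 of the 17 IgG1 cells. A single cell held 48.9% of it. These genes were singled out after their values were seen.

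The immediate early genes Fos and Jun, which tissue digestion can also induce, were found in 32 and 30 of 42 deep cells. Fos stood at 3341, 110 and 2462 CPM in the 3 IgG1 mice, in order of replicate, and at 3007, 2309 and 2753 in ipilimumab replicates 1, 2 and 3. The 2 cells of IgG1 replicate 2 were the lowest for Jun as well, at 27.6 CPM.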
